A study of Mus musculus with 48 samples.

Results

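DN cells are the lymph node stromal cells that carry neither CD31 (the endothelial surface protein encoded by *Pecam1*) nor gp38 (podoplanin, encoded by *Pdpn*), and they are described here in lymphoma-bearing mice against naive mice. The members are the array strips whose titles name DN cells, with the labels tumor or naive, and they make up 12 of the 48 strips of the series. The strips belong to 3 DN tumor and 3 DN naive replicates, which are 6 of the 24 replicates. Each replicate was read on 2 strips, and the strips were averaged first, so that every comparison was made over 3 against 3 replicates. Fibroblastic reticular cells (FRCs), blood endothelial cells (BECs) and lymphatic endothelial cells (LECs) of the same design, 6 replicates each, served for comparison.

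The tumor group came from mice injected i.v. with Eμ-*Myc* lymphoma B cells, 200000 to 400000 per mouse, whose lymph nodes held a mean tumor load of 4% to 10% of lymphocytes. These cells derive from mice in which the immunoglobulin heavy chain enhancer drives *Myc* in the B lineage. The naive group came from wild-type mice without tumor cells. A paper that reuses these arrays, and credits them to an earlier study, names C57BL/6N mice of both sexes aged 8 to 12 weeks and several independent lymphoma clones. It does not say that this holds for the mice behind the arrays. Skin-draining nodes were digested, CD45 beads removed leukocytes, and cells were sorted with gates on CD45, Ter119, gp38, CD31 and the dead cell dye 7AAD to a labelled purity above 95%. For a replicate, the RNA of 4 to 6 sorts was pooled and 80 ng hybridised, so a replicate is not an animal. The design calls the replicates biological, and if pools shared sorts the p-values measure only the spread between these pools. In bulk RNA, fewer cells of a type and less RNA per cell cannot be told apart.

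As background, mural cells (pericytes and vascular smooth muscle cells) wrap blood vessels, contract through smooth muscle actin and myosin and receive PDGF-B and Notch signals from the endothelium. The DN fraction of lymph nodes is known to hold such contractile cells, and, being defined by absent markers, it can also hold any CD45-negative cell without CD31 and gp38, among them Schwann cells of nodal nerves. In Eμ-*Myc* mice the lymphoma cells are proliferating B-lineage cells.

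All levels below are log2 values of the deposited table after quantile normalization, which makes the distributions of all strips equal, and a change is the DN tumor mean minus the DN naive mean. A probe was taken as above background where its value exceeded 5.72. This level is 3 robust SDs above the mode of the values. The 12666 genes with a group mean above it were tested in 1 limma model of all 8 groups, and a gene was called where its Benjamini-Hochberg adjusted p was below 0.05. DN strips held 863780 to 965527 beads, and each probe code was read by 18 to 20 beads in the median.

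The label was checked against its markers first. *Acta2* (smooth muscle actin) read 15.26, 15.33 and 15.72 in DN tumor replicates 1 to 3 and 15.3, 15.73 and 15.2 in DN naive replicates 1 to 3. *Des* (desmin, an intermediate filament of muscle) read 12.1, 12.23 and 12.35 in DN tumor replicates and 11.33, 13.54 and 11.27 in DN naive replicates. *Rgs5* (a regulator of G-protein signaling typical of pericytes) read 11.87, 12.12 and 11.7 in DN tumor replicates and 11.52, 12.8 and 12.53 in DN naive replicates. The groups overlapped for each of these genes. In DN naive cells all 13 pericyte and smooth muscle markers tested were above the mean of naive FRCs, BECs and LECs in the limma contrast, where 25.8% of all genes were higher and 25.6% lower, with *Rgs5* 2.83 ± 0.5 higher (SE, adjusted p = 0.00013) and *Notch3* 3.14 higher. Against FRCs alone, *Rgs5* was 2.58 higher (adjusted p = 0.0027), whereas *Acta2* (-0.34, adjusted p = 0.44) and *Des* (0.31, adjusted p = 0.65) did not pass. *Pdgfrb* averaged 10.29 in DN naive cells and 10.89 in naive FRCs. Genes of other cells were also higher in DN naive cells in the contrast with the mean of the 3 cell types. They were 13 of 15 skeletal muscle, 10 of 14 epithelial, 8 of 11 Schwann cell and 13 of 20 fibroblast genes, with 1, 4, 0 and 1 lower. The contrast therefore does not single out mural genes. The sorted protein genes followed the gates only in part. *Pdpn* averaged 11.25 in DN naive cells, against 14.41 in naive FRCs, 8.81 in naive BECs and 14.2 in naive LECs, and *Pecam1* averaged 7.5 in DN naive cells, against 7.31, 14.6 and 13.62 in naive FRCs, BECs and LECs. The probe of *Ptprc*, which encodes CD45, was above background in no group mean.

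**Figure D1:**
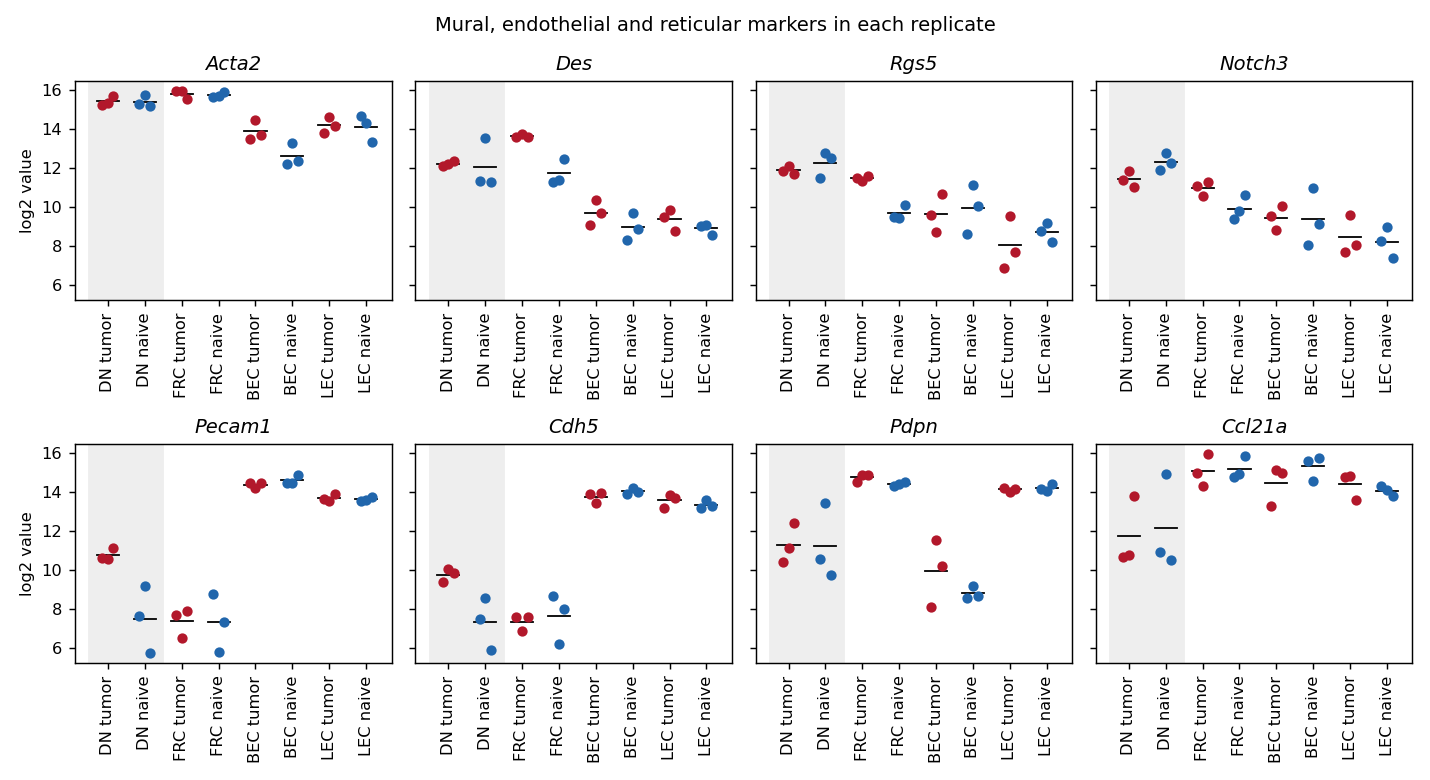
Log2 value (y axis) of 8 marker genes in each replicate of the 8 groups (x axis, tumor in red, naive in blue, DN groups shaded), with the group mean as a line. *Acta2* lay at 15.2 or above in all 6 DN replicates, and *Pecam1* averaged 10.76 in DN tumor and 7.5 in DN naive cells.

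Libraries that stood apart touch every result. Among the DN replicates, the first principal component over all genes held 44.8% of the variance and put DN tumor 1 at -73.1, DN tumor 2 at -47.2 and DN tumor 3 at 13, against 30.7, 39.3 and 37.5 for DN naive 1 to 3. DN tumor 3 thus lay between the other tumor replicates and the naive ones, and its own strips correlated least (r = 0.9751, across genes) with a median difference of 0.38 between strips, against 0.167 to 0.205 in the other DN replicates. DN naive 2 stood apart on the second component, at 72.8 against -40.2 and -39.1 for DN naive 1 and 3. It read high in genes of reticular cells, for example 11.5 for *Il7* (a T cell survival factor) against 5.7 and 6.1 in DN naive 1 and 3, and 14.94 for *Ccl21a* (a chemokine of FRCs) against 10.9 and 10.53. *Pdpn* read 13.43 in DN naive 2, against 10.56 and 9.75.

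In DN cells, 637 genes were higher and 350 lower in lymphoma-bearing mice, which is 5.03% and 2.76% of the genes tested and 7.79% together. Values of the DN tumor and DN naive replicates did not overlap for 546 of the higher and 309 of the lower genes, whereas over all genes 8.1% lay higher and 8.07% lower without overlap. Of the higher genes, 549 had their lowest tumor value in DN tumor 3, and 201 passed again in each of 6 models that left out 1 DN replicate (1.59% of all genes), as did 69 of the lower genes (0.545%). The number of calls depended on how the spread was estimated. The median SD over genes was 0.308 in DN tumor and 0.372 in DN naive cells, against 0.16 to 0.232 in the groups of the other cell types, which the model pools with them. With weights that let DN cells have their own larger spread, an alternative added after the data were seen, 108 genes were higher and 20 lower. A limma fit on the 6 DN replicates alone called 0 genes, with 756 higher and 501 lower at an unadjusted p below 0.05. Without DN tumor 1, 2 and 3 the calls numbered 311, 575 and 2155, and without DN naive 1, 2 and 3 they numbered 885, 1964 and 611. Without DN tumor 3 and DN naive 2 together, 1548 genes were higher and 1665 lower.

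The largest rises were B-lineage genes. *Mzb1*, a chaperone-associated protein of marginal zone B and plasma cells, read 14.32, 13.54 and 11.42 in DN tumor replicates, against 6.57, 5.9 and 6.41 in DN naive replicates. It rose by 6.8 ± 0.78 on the log2 scale (SE), which is 111-fold (adjusted p = 4.3e-05). *Vpreb3*, a partner of the pre-B cell receptor chains, read 13.03, 12.55 and 9.39 in DN tumor replicates, against 5.24, 5.13 and 5.89 in DN naive replicates, of which only the last was above background. Its rise was 6.24 ± 0.97 (adjusted p = 0.00059). *Pou2af1*, the B cell coactivator of octamer-binding factors, read 12.33, 11.88 and 8.82 in DN tumor replicates and was not above background in any DN naive replicate (5.61, 5.39 and 5.25), a rise of at least 39.2-fold against the background level. The tumor replicates exceeded all naive ones for each of these genes, and DN tumor 3 was the lowest of the tumor replicates. *Cd79b*, a signaling chain of the B cell receptor, read 13.41, 12.72 and 10.04 in DN tumor replicates, against 8.02, 7.17 and 7.56 in DN naive replicates, a rise of 4.47 ± 0.78 (adjusted p = 0.0014). *Btk*, the tyrosine kinase downstream of that receptor, rose by 5.57, and *Lrmp* (5.84), *Fcrla* (4.75), *Ly86* (4.44), *Napsa* (5.27) and *Kcnab2* (4.63) were other large rises. *Bcat1*, a cytosolic branched-chain aminotransferase, rose by 4.57 and *Pclaf*, a PCNA-binding replication factor, by at least 20.6-fold. All 12 of these largest rises passed in each model that left out 1 DN replicate, and 9 passed with weights by cell type. Other sorted cells showed such changes too. *Mzb1* changed by 2.83 in FRCs (adjusted p = 0.025), 4.42 in BECs (adjusted p = 0.0023) and 3.14 in LECs (adjusted p = 0.062). *Vpreb3* changed by 1.6 in FRCs (adjusted p = 0.32), 4.59 in BECs (adjusted p = 0.0081) and 1.81 in LECs (adjusted p = 0.64).

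**Figure D2:**
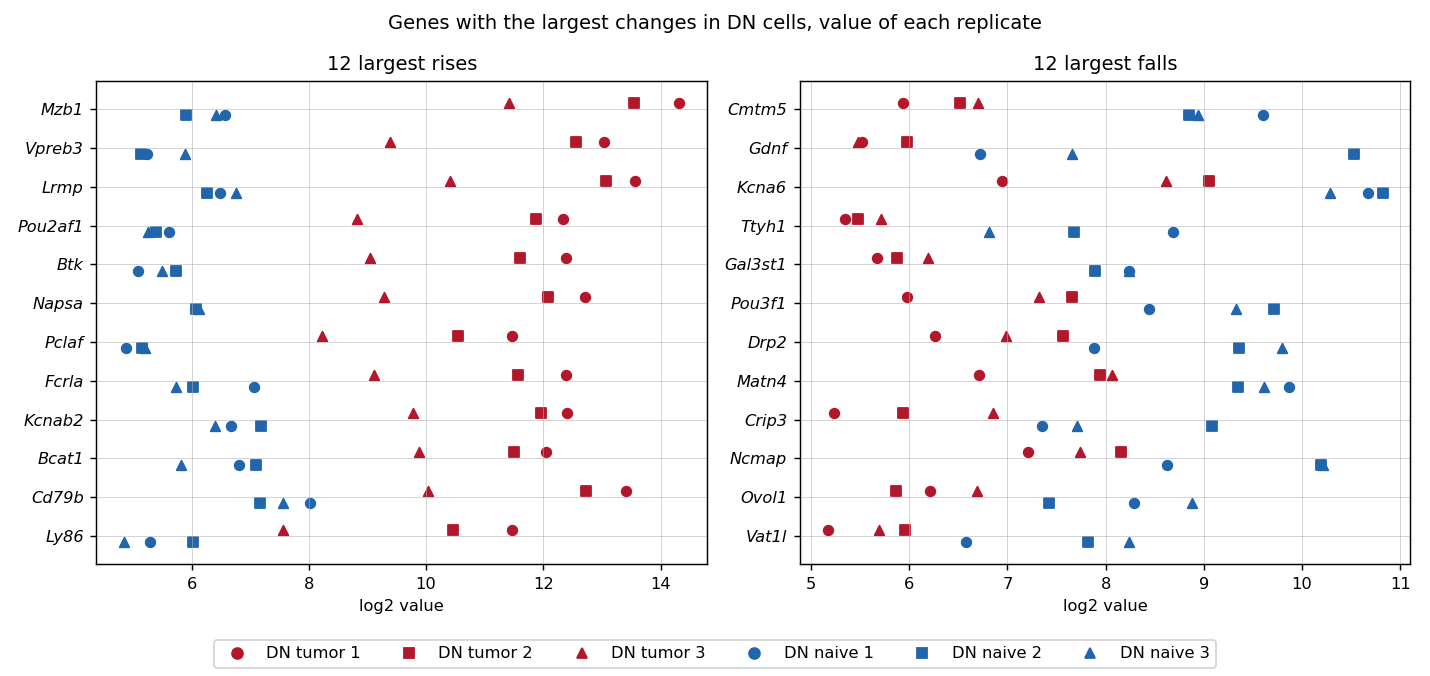
Log2 value (x axis) of the 12 genes with the largest rises (left) and the 12 with the largest falls (right) in each DN replicate, tumor in red above naive in blue, with a marker shape for each replicate number. In the left panel DN tumor 3 lies below DN tumor 1 and 2 for every gene, and *Mzb1* shows the widest gap between the groups.

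Leukocyte genes as a whole moved in the same way in DN tumor 1 and 2 and far less in DN tumor 3. Of 13 tested members of the leukocyte list 8 were higher and 0 lower, beside 5.03% and 2.76% of all genes. Their median change was 2.5, against -0.07 over all genes. Their mean level was 12.03, 11.37 and 8.97 in DN tumor replicates, against 8.39, 8.12 and 8.13 in DN naive replicates. *Coro1a*, an actin regulator of blood cells, read 14.27, 13.79 and 11.31 in DN tumor replicates, against 9.85, 9.14 and 8.94 in DN naive replicates (change 3.81 ± 0.75, adjusted p = 0.0039). *Rac2*, a GTPase of blood cells, rose by 3.6 and *Arhgdib* by 2.01, and *Fermt3*, an integrin activator, was at least 6.69-fold higher, since it was above background in 0 DN naive replicates. Leaving out DN tumor 1 left 1 member called, leaving out DN tumor 2 left 3, leaving out DN naive 3 left 4, and weights by cell type left 0. The median change of the leukocyte list was 1.04 in FRCs, 1.73 in BECs and 0.61 in LECs. In a limma contrast of the changes, 0 members differed from the mean change of those cell types, as did 0.845% of all genes. With so few genes passing, this count does not show that the changes were alike.

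Of 16 tested B cell markers 8 were higher and 0 lower, with a median change of 1.51, beside 5.03% of all genes higher and 2.76% lower. Their mean level was 9.64, 9.26 and 7.35 in DN tumor replicates, against 6.4, 6.76 and 6.4 in DN naive replicates. *Cd22*, an inhibitory B cell lectin, read 10.22, 9.73 and 5.93 in DN tumor replicates, against 5.11, 5.43 and 5.23 in DN naive replicates, none of which was above background (at least 7.51-fold, adjusted p = 0.019), and *Ms4a1*, which encodes CD20, changed by 1.08 (adjusted p = 0.021). Without DN tumor 1, and likewise without DN tumor 2, 3 markers were called, and with weights by cell type 2 were. The median change of the B cell markers was 0.45 in FRCs, 0.83 in BECs and 0.11 in LECs. In the contrast of changes 0 of them differed, beside 0.845% of all genes. Of the T and NK cell markers 5 of 14 were higher, for example *Cd2*, an adhesion receptor, at 10.15, 9.89 and 5.76 in DN tumor replicates, against 5.47, 5.35 and 5.41 in DN naive replicates (at least 7.36-fold, adjusted p = 0.022). The T cell receptor chain *Cd3g* read 9.42, 9.2 and 5.48 in DN tumor replicates, against 6.75, 5.71 and 5.66 in DN naive replicates, and did not pass (adjusted p = 0.089). Without DN tumor 1, DN tumor 2 or DN naive 3, and with weights by cell type, 0 of these 14 passed, and without DN tumor 3 10 did. Of 19 myeloid markers 2 were higher, the complement genes *C1qb* (at least 4.88-fold, adjusted p = 0.019) and *C1qc* (at least 2.73-fold, adjusted p = 0.049), neither above background in any DN naive replicate, while *Csf1r* (0.24, adjusted p = 0.57) and *Lyz2* (2.33, adjusted p = 0.17) did not pass. Myeloid calls numbered 0 without DN tumor 1 or DN tumor 2 and with weights by cell type, and 7 without DN tumor 3. DN tumor 3 read within or below the naive range for *Cd3g* and *C1qc* and at most 0.5 above it for *Cd22* and *Cd2*.

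Antigen presentation genes included 6 higher members of 21, beside 5.03% of all genes, with 0 lower and a median change of 1.0. *Cd74*, the invariant chain of MHC class II, read 14.1, 13.7 and 10.87 in DN tumor replicates, against 10.48, 10.95 and 9.46 in DN naive replicates (2.59 ± 0.65, adjusted p = 0.02). The class II transactivator *Ciita* read 8.71, 8.08 and 4.99 in DN tumor replicates, against 4.99, 4.79 and 4.79 in DN naive replicates, and *Cd86*, a costimulatory ligand, read 10.17, 9.42 and 5.55 in DN tumor replicates, against 5.1, 5.3 and 5.04 in DN naive replicates. *Ciita* passed at an adjusted p of 0.028 and *Cd86* at 0.036, and neither was above background in DN tumor 3 or in any DN naive replicate, so that the rises are at least 2.91-fold and at least 6.33-fold. Without DN tumor 1, DN tumor 2 or DN naive 3, and with weights by cell type, 0 of the 21 genes passed, and without DN tumor 3 13 did. As for the leukocyte list, DN tumor 1 was highest and DN tumor 3 lowest of the tumor replicates, and the part of leukocyte RNA in these changes was not tested.

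Proliferation genes rose together. Of 35 tested cell cycle genes 28 were higher and 0 lower, beside 5.03% and 2.76% of all genes, with a median change of 2.48. Of the 28, 22 passed in each model that left out 1 DN replicate, as did 1.59% of all genes as higher. The mean level of the 35 genes was 10.97, 10.37 and 9.35 in DN tumor replicates, against 7.85, 8.01 and 7.95 in DN naive replicates. *Cdk1*, the kinase that drives entry into mitosis, read 11.25, 10.57 and 9.71 in DN tumor replicates, against 6.5, 6.67 and 6.95 in DN naive replicates, a rise of 3.8 ± 0.39 (adjusted p = 2.7e-05). The replication helicase subunits *Mcm3* (3.11 ± 0.34) and *Mcm5* (3.0 ± 0.34) both passed at an adjusted p of 3.7e-05. *Nusap1*, a spindle protein, read 11.58, 10.81 and 9.56 in DN tumor replicates, against 6.66, 6.33 and 6.95 in DN naive replicates. The median over the list lay 3.34, 2.51 and 1.36 above the naive mean in DN tumor 1, 2 and 3. Members that did not pass were *Ccnd1* (0.2), *Ccne2* (above background in 1 DN tumor replicate only), *Cenpf* (0.35), *Pcna* (0.51), *Rrm2* (1.5) and the cell cycle inhibitors *Cdkn1a* (-1.0) and *Cdkn1c* (-0.24). With weights by cell type 16 members were called. The median change of the same list was 2.8 in FRCs, 2.53 in BECs and 1.86 in LECs, and 0 members differed from the mean change of those cell types in the limma contrast of the changes, in which 0.529% of all genes rose more and 0.316% less in DN cells. Of the same members 31 were higher in FRCs, where 6.66% of all genes were higher and 4.3% lower. In BECs 29 were higher, beside 3.79% of all genes higher and 1.56% lower, and in LECs 20 were higher, beside 0.845% higher and 0.158% lower. Lymphoma cells divide as well, and how much of this rise came from RNA of such cells was not tested.

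Since these genes moved together, their promoters are shown with a pair of elements known from cell cycle promoters, the cell cycle genes homology region (CHR, searched as TTTGAA) and the CCAAT box (searched as CCAAT), each on both strands. The letters of these motifs do not overlap in the promoters below, where capitals mark the matches. The sequences are those of RefSeq on GRCm38.p6, run 5′ to 3′ along the gene and span 300 bases around its start. *Plk1*, *Top2a* and *Aurka* were chosen, after their values were seen, as strongly changed members that hold both elements.
Cdk1 (chr10:69352863-69353162, minus strand): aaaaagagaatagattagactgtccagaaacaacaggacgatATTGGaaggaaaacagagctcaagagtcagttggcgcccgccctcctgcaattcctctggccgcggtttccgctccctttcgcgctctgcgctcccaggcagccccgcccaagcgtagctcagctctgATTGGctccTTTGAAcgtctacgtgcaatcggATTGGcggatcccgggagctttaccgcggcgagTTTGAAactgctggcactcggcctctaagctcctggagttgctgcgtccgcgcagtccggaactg
Plk1 (chr7:122159185-122159484, plus strand): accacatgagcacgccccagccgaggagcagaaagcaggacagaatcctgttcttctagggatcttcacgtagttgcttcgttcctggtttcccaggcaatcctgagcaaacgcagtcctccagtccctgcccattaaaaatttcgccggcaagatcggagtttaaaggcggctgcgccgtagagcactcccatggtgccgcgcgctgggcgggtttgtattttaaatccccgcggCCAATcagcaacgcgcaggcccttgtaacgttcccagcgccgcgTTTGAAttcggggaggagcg
Top2a (chr11:99024140-99024439, minus strand): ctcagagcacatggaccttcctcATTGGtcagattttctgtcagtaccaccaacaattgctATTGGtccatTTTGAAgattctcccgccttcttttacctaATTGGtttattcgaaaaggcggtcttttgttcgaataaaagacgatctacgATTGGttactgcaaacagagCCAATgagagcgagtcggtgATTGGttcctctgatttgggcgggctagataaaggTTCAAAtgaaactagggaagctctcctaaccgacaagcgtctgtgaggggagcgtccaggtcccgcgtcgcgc
Aurka (chr2:172370521-172370820, minus strand): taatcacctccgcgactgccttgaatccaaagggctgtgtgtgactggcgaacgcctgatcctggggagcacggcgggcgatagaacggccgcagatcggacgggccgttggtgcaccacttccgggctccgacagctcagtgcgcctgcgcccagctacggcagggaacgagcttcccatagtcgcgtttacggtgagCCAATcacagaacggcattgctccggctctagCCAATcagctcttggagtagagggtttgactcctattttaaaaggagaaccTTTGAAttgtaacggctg
The CHR letters occurred in 12 of the 27 promoters that could be matched to tested cell cycle genes (44.4%) and in 18.1% of 27025 promoters, 1 per gene. The CCAAT letters occurred in 18 of those 27 (66.7%) and in 37.9% of all promoters. *Plk1*, the mitotic polo-like kinase, read 11.88, 11.45 and 9.77 in DN tumor replicates, against 6.83, 6.37 and 6.85 in DN naive replicates. *Top2a*, the topoisomerase of dividing cells, read 11.51, 10.86 and 9.08 in DN tumor replicates, against 6.47, 5.83 and 6.71 in DN naive replicates. *Aurka*, a spindle pole kinase, read 10.77, 9.91 and 9.18 in DN tumor replicates, against 6.53, 8.46 and 7.22 in DN naive replicates. The groups did not overlap for any of them.

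For the B-lineage rises the octamer is shown in *Vpreb3*, since *Pou2af1* rose beside it. It was searched as ATGCAAAT on both strands, and capitals mark the match.
Vpreb3 (chr10:75948050-75948349, plus strand): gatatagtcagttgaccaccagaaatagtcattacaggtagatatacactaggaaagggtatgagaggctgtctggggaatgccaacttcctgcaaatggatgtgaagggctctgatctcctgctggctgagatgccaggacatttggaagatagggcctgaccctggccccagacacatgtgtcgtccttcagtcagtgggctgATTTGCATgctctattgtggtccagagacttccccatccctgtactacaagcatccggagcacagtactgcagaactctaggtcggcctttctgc
These letters stood in 2 of 12 matched promoters of the B cell list and in 1.75% of all promoters. A match describes the sequence and says nothing of binding.

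Of 29 ribosome biogenesis genes 6 were higher (median 0.61), beside 5.03% of all genes. Among them were *Nip7* (0.9 ± 0.21, adjusted p = 0.012), *Heatr1* (0.84), *Nop56* (0.88), *Mrto4* (0.96) and *Mybbp1a* (1.1), all factors of nucleolar ribosome assembly. Another probe of *Mybbp1a* changed by -0.35, and for the other 35 of 36 named genes that passed and have more than 1 probe all probes changed with the same sign, although not always by a like amount. Another probe changed by only 0.02 for *Pdgfb*, 0.03 for *St6galnac3*, 0.1 for *Ccn4*, -0.09 for *S1pr3* and 0.34 for *Pecam1*, and the other probes of *Matn4* changed by -0.07 and -0.24. Further weaker probes changed by 0.65 for *Mfng*, 0.79 for *Klhl6* and 0.4 for *Oasl1*, and by -0.55 to -0.05 for *Cald1*. Without DN tumor 1 0 of the 29 passed, without DN tumor 2 or DN naive 3 1 passed, and without DN tumor 3 19 did.

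**Figure D3:**
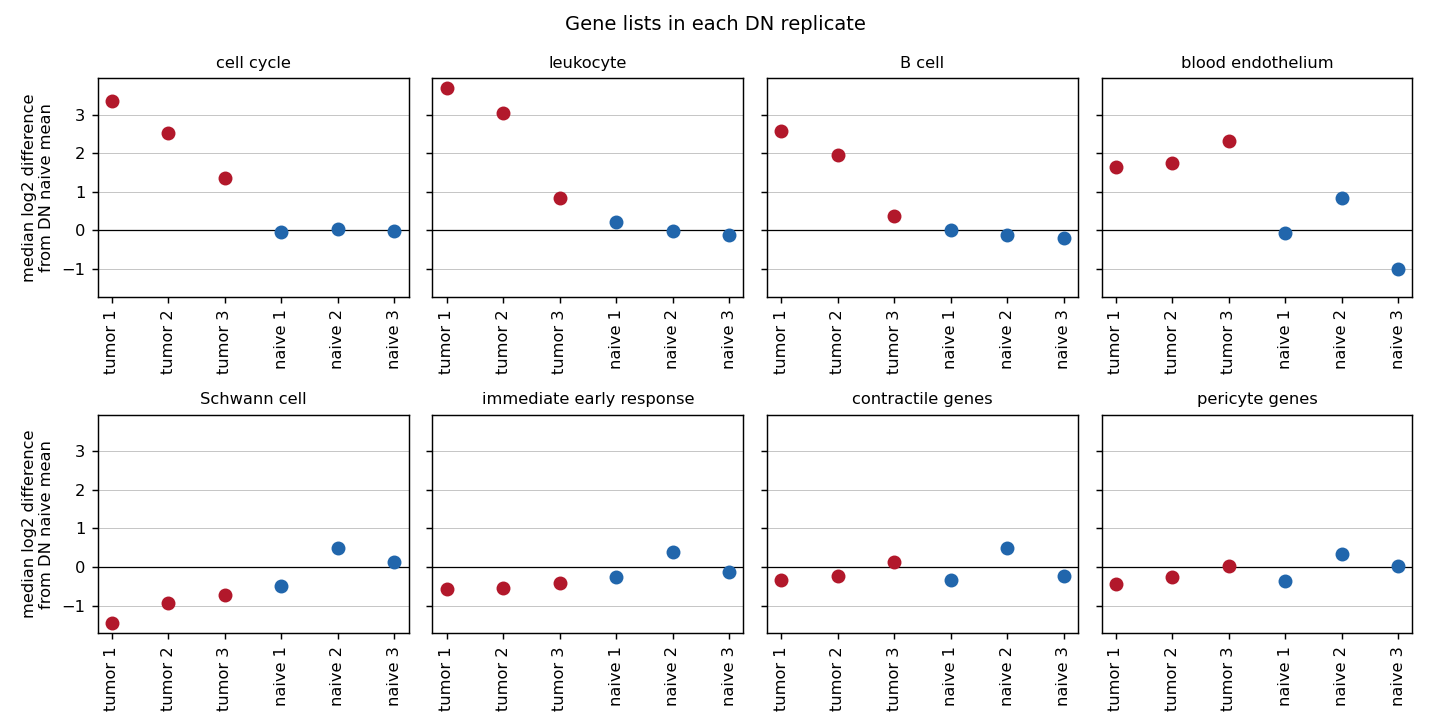
Median over the tested members of 8 gene lists of the log2 difference from the DN naive mean (y axis) in each DN replicate (x axis, tumor in red, naive in blue). DN tumor 3 lay at 0.85 for leukocyte genes and 1.36 for cell cycle genes, and at 2.31, the highest of all replicates, for blood endothelial genes.

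Blood endothelial genes were higher in DN tumor cells in all 3 replicates, although the gate excluded cells with CD31 protein. Of 20 members 10 were higher and 0 lower, beside 5.03% and 2.76% of all genes, with a median change of 1.94. Of the 10, 7 passed in each model that left out 1 DN replicate, as did 1.59% of all genes as higher. The mean level of the 20 members was 9.89, 10.02 and 10.3 in DN tumor replicates, against 8.33, 9.29 and 7.52 in DN naive replicates, so that the groups did not overlap, and DN tumor 3 was the highest. *Pecam1* read 10.6, 10.57 and 11.11 in DN tumor replicates, against 7.61, 9.15 and 5.74 in DN naive replicates, a rise of 3.26 ± 0.65 (adjusted p = 0.0039). *Tie1*, an endothelial receptor tyrosine kinase, read 7.04, 7.5 and 8.22 in DN tumor replicates, against 5.7, 5.84 and 5.27 in DN naive replicates (1.98 ± 0.31, adjusted p = 0.00061). *Sox18*, a transcription factor of vascular development, read 9.79, 10.32 and 10.48 in DN tumor replicates, against 6.63, 9.08 and 5.68 in DN naive replicates (3.06 ± 0.56, adjusted p = 0.0022). The GPI-anchored surface protein gene *Ly6c1* rose by 2.73. Other members did not pass. *Kdr*, the main VEGF receptor, was near background (5.3, 6.02 and 5.23 in DN tumor replicates, 5.64, 5.64 and 5.37 in DN naive replicates). Its probe was also near or below background in naive BECs (6.0) and LECs (5.47), so that it could hardly measure a change. *Tek*, the angiopoietin receptor, changed by 1.29 (adjusted p = 0.066). With weights by cell type, 2 members were called, *Tie1* (adjusted p = 0.046) and *Sox18* (adjusted p = 0.049).

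For 19 of the 20 members the change in DN cells was above the mean change of the other cell types. The median change of the 20 members was -0.15 in FRCs, -0.29 in BECs and 0.06 in LECs. In the contrast of changes, *Pecam1* rose by 3.3 ± 0.75 more than the mean of the other cell types (adjusted p = 0.04), *Tie1* by 2.15 ± 0.36 more (adjusted p = 0.0048) and *Ly6c1* by 3.09 ± 0.67 more (adjusted p = 0.03). These were 3 of the 20 members, where 0.845% of all genes passed in either direction. Naive BECs and LECs already held high levels of *Pecam1* (14.6 and 13.62) and *Tie1* (12.45 and 11.8). The contrast therefore does not show that the rise is particular to DN cells. In FRCs *Pecam1* changed by 0.05, *Tie1* by -0.46 and *Ly6c1* by 0.15, whereas *Sox18* rose by 1.95 (adjusted p = 0.031). *Tie1* passed in all 6 models without 1 DN replicate, *Ly6c1* in 3 and *Pecam1* in 2. The level of these genes in DN tumor cells stayed below that of endothelium, since *Pecam1* averaged 10.76 in DN tumor cells and 14.37 in tumor BECs, and *Tie1* averaged 7.59 in DN tumor cells and 12.17 in tumor BECs. Lymphatic endothelial genes gave 1 higher member of 13, beside 5.03% of all genes. This was *Ackr2*, a scavenging chemokine receptor (1.46 ± 0.44, adjusted p = 0.05 as rounded). It was not called without DN tumor 1, DN tumor 2, DN tumor 3 or DN naive 3. *Prox1*, the master regulator of lymphatic identity, read 5.36, 6.07 and 7.45 in DN tumor replicates and 5.73, 7.56 and 5.83 in DN naive replicates. The part of endothelial cells in the DN gate was not tested.

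**Figure D4:**
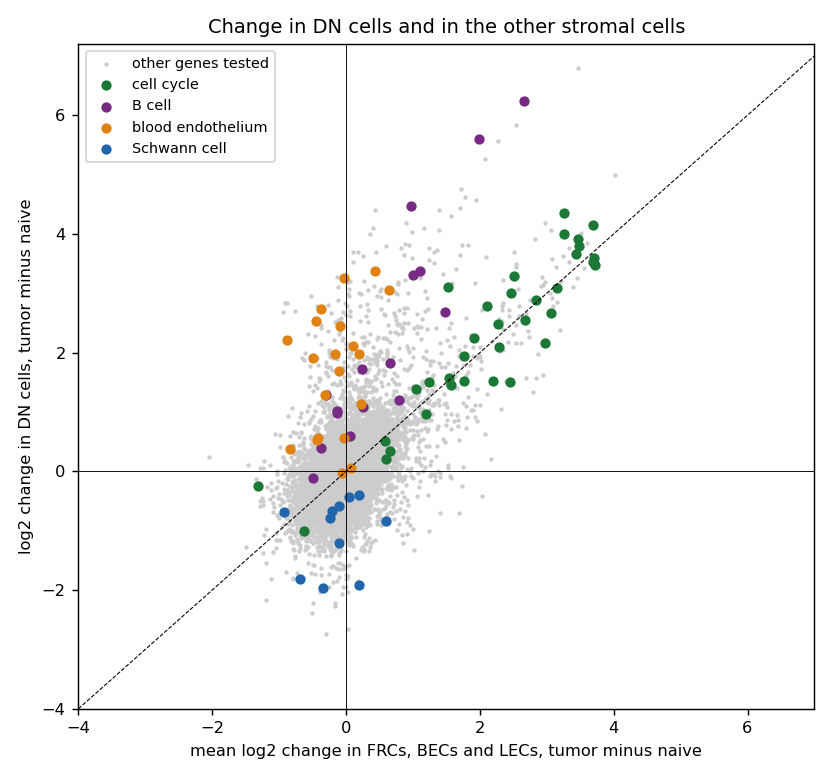
Log2 change of each tested gene in DN cells (y axis) against its mean log2 change in FRCs, BECs and LECs (x axis), with the members of 4 lists in color and equal changes on the dashed line. Cell cycle genes (median 2.48 in DN cells) lie on both sides of the line, 19 of 20 blood endothelial genes above it and 10 of 11 Schwann cell genes below it.

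Genes of myelinating Schwann cells were among the largest falls. Of 11 tested Schwann cell markers 3 were lower and 0 higher, beside 2.76% and 5.03% of all genes. The median change was -0.79, and all 11 changes were negative. *Ncmap*, a protein of noncompact myelin, read 7.21, 8.16 and 7.74 in DN tumor replicates, against 8.63, 10.19 and 10.21 in DN naive replicates, and fell by 1.97 ± 0.34 on the log2 scale (adjusted p = 0.0012). *Mag*, the myelin-associated glycoprotein, read 7.45, 8.52 and 8.28 in DN tumor replicates, against 8.88, 10.57 and 10.56 in DN naive replicates, and fell by 1.92 ± 0.37 (adjusted p = 0.0035). *Mal*, a myelin proteolipid, fell by 1.21 (adjusted p = 0.012). *Mbp*, myelin basic protein, read 9.9, 11.41 and 11.31 in DN tumor replicates, against 11.76, 13.47 and 12.81 in DN naive replicates, without overlap but also without passing (adjusted p = 0.068), and the lineage factor *Sox10* overlapped (11.68, 12.48 and 13 in DN tumor replicates, 13.11, 11.77 and 13.46 in DN naive replicates). With weights by cell type 1 marker (*Ncmap*) was called, without DN naive 1 there were 5 and without DN tumor 3 there were 6.

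The largest falls included further genes known from myelinating glia beside others that are not. *Gal3st1*, which makes the myelin lipid sulfatide, read 5.67, 5.88 and 6.19 in DN tumor replicates, against 8.24, 7.89 and 8.24 in DN naive replicates, and fell by 2.21 ± 0.17, with the smallest adjusted p of the genes named (7.7e-07). *Cmtm5*, a membrane protein enriched in myelinating glia, read 5.94, 6.52 and 6.7 in DN tumor replicates, against 9.6, 8.85 and 8.94 in DN naive replicates, and fell by 2.74 ± 0.25 (adjusted p = 8.3e-06), the largest of the 12 falls. *Drp2*, a periaxin-bound dystrophin relative of Schwann cells, fell by 2.07 and *Pou3f1*, the transcription factor of promyelinating Schwann cells, by 2.17. *Gdnf*, a trophic factor for neurons, read 5.52, 5.98 and 5.48 in DN tumor replicates, against 6.72, 10.53 and 7.66 in DN naive replicates, with DN naive 2 far above the other naive replicates, and fell by 2.65. *Kcna6*, a voltage-gated potassium channel, fell by 2.39, *Matn4*, the matrix protein matrilin 4, by 2.04, *Crip3* by 2.04, *Ovol1*, a zinc finger transcription factor, by 1.94 and *Vat1l* by 1.94. *Ttyh1*, an anion channel family member, was above background in no DN tumor replicate (5.35, 5.48 and 5.71, against 8.69, 7.68 and 6.81 in DN naive replicates), at least 4.02-fold lower. Of these 12 largest falls 9 passed in each model that left out 1 DN replicate and 6 with weights by cell type. In the contrast of changes *Cmtm5*, *Gal3st1*, *Mag* and *Drp2* passed as falling further in DN cells. *Gal3st1* was below background in naive FRCs (5.31), BECs (5.08) and LECs (5.27), *Cmtm5* in naive BECs (5.15) and LECs (5.48), *Mag* in naive BECs (5.47) and *Drp2* in naive BECs (5.06). No fall could be measured there, so the contrast does not show that DN cells differ from those cell types. In naive FRCs *Drp2* averaged 8.92, *Cmtm5* 6.78 and *Mag* 6.57, and they changed in FRCs by -0.46, -0.77 and 0.61.

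The mural cell programme itself moved little. Of 24 tested pericyte genes 1 was lower and 0 higher, with a median change of -0.32, beside 2.76% of all genes called lower. *S1pr3*, a receptor for sphingosine-1-phosphate, read 5.8, 5.27 and 5.47 in DN tumor replicates, against 6.03, 6.7 and 6.44 in DN naive replicates, and fell by 0.88 ± 0.23 (adjusted p = 0.025). It was not called without DN tumor 2, DN naive 2 or DN naive 3. *S1pr3* changed by 1.86 in FRCs, and the change in DN cells was 1.43 ± 0.27 below the mean of the other cell types (adjusted p = 0.01), of which naive BECs (5.32) and LECs (5.07) were below background. *Notch3*, the mural Notch receptor, read 11.41, 11.86 and 11.01 in DN tumor replicates, against 11.9, 12.8 and 12.26 in DN naive replicates, without overlap, but its change of -0.89 did not pass (adjusted p = 0.4). *Pdgfrb*, the PDGF-B receptor, changed by -0.16 (adjusted p = 0.91), and none of the 13 markers used to check the label passed.

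Of 25 contractile genes 3 were lower and 1 higher, with a median change of -0.1, beside 2.76% of all genes lower and 5.03% higher. *Myocd*, the coactivator of serum response factor in smooth muscle, read 7.87, 7.62 and 8.03 in DN tumor replicates, against 8.65, 9.75 and 8.77 in DN naive replicates, and fell by 1.22 ± 0.26 (adjusted p = 0.0082). It passed in all 6 models without 1 DN replicate and was near or below background in the naive groups of the other cell types (5.62 in FRCs, 5.91 in BECs and 5.66 in LECs), where a fall could hardly be measured. *Pln*, the inhibitor of the calcium pump SERCA, was above background in 0 DN tumor replicates and at least 1.26-fold lower (adjusted p = 0.024). *Cald1*, caldesmon, fell by 1.13 (adjusted p = 0.049), but its 4 other probes changed by only -0.55 to -0.05. *Kcnmb1*, a subunit of a calcium-activated potassium channel, rose by 0.86 (adjusted p = 0.049). Without DN tumor 1, DN tumor 2 or DN naive 2 1 contractile gene was lower, without DN tumor 3 5 were, and with weights by cell type 0 passed. The structural genes *Acta2* (0.03, adjusted p = 0.97), *Tagln* (0.15, adjusted p = 0.89) and *Myh11* (-0.84, adjusted p = 0.28) did not pass, and *Myh11* alone of these had groups without overlap, at 11.3, 12.05 and 11.9 in DN tumor replicates, against 12.26, 12.99 and 12.51 in DN naive replicates. Of 29 signals from mural cells to vessels 2 were higher, which is close to the 5.03% of all genes, *Pdgfb* (1.43 ± 0.33, adjusted p = 0.011), which endothelium is known to secrete to recruit pericytes, and *Tgfb1* (1.08, adjusted p = 0.022). *Pdgfb* read 10.24, 10.36 and 10.44 in DN tumor replicates, against 9.06, 9.73 and 7.95 in DN naive replicates. Which cells of the sort held this RNA was not tested. Without DN naive 3, and with weights by cell type, 0 of the 29 were higher.

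**Figure D5:**
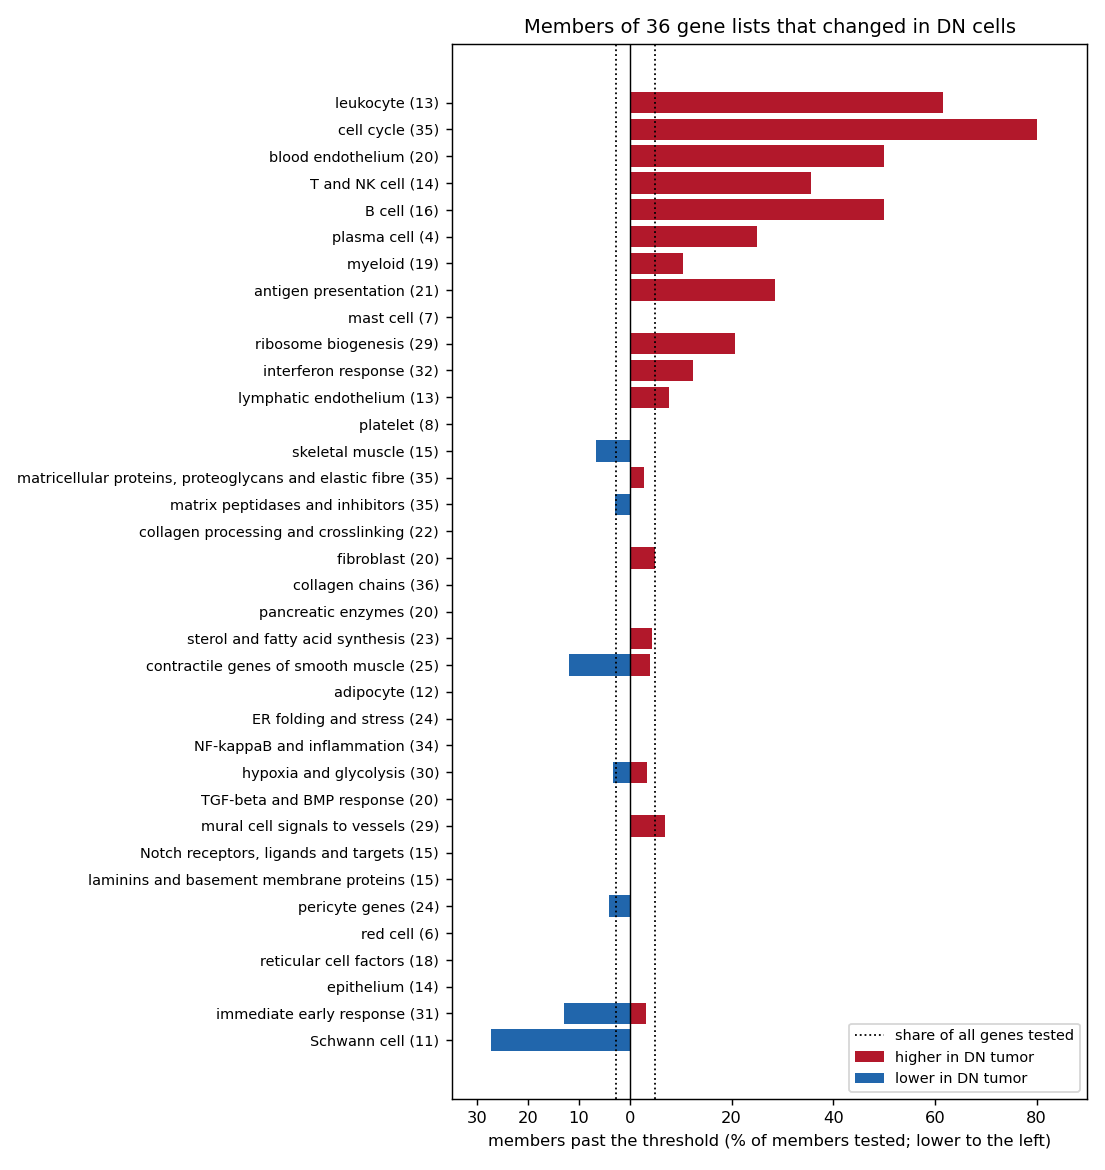
Share of tested members (x axis, in %) that passed the limma threshold as higher (red, to the right) or lower (blue, to the left) in DN tumor cells for 36 gene lists, with the number tested in parentheses, sorted by median change. The dotted lines give the share over all genes tested, 5.03% higher and 2.76% lower, and the bars of the matrix lists stay near or below them.

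Matrix genes, which build the conduits and vessel walls, gave few calls, beside 7.79% of all genes called in either direction. Of 36 collagen chains 0 passed (median change -0.04), as did 0 of 15 laminins and other basement membrane genes and 0 of 22 genes of collagen processing. Of 35 matricellular, proteoglycan and elastic fibre genes 1 was higher, beside 5.03% of all genes. This was *Ccn4*, a Wnt-induced matricellular protein (8.33, 8.19 and 8.47 in DN tumor replicates, 7.17, 7.76 and 6.33 in DN naive replicates, change 1.25 ± 0.32, adjusted p = 0.022). Of 35 matrix peptidases and inhibitors 1 was lower, which is close to the 2.76% of all genes, *Adamts20* (-0.85 ± 0.22, adjusted p = 0.025). Fibroblast markers gave 1 higher of 20, which is close to the 5.03% of all genes. It was *Cd248* (endosialin), at 12.85, 13.09 and 13.48 in DN tumor replicates, against 11.78, 12.25 and 11.39 in DN naive replicates (1.33 ± 0.38, adjusted p = 0.036). The calls of *Ccn4* and *Adamts20* were lost without DN tumor 1 or DN naive 3, and of the models without 1 DN replicate *Cd248* passed only in that without DN naive 2. Reticular cell factors gave 0 of 18, Notch genes 0 of 15, TGF-β and BMP response genes 0 of 20, NF-κB and inflammation genes 0 of 34 and ER folding genes 0 of 24. For reticular and inflammation genes the naive group was split, since DN naive 2 lay 2.3 and 1.16 above the naive mean as a median over these lists. Without DN naive 2, 3 reticular and 6 inflammation genes passed, all higher.

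Of 31 early response genes, which cells induce within minutes of a stimulus, 4 were lower and 1 higher, beside 2.76% and 5.03% of all genes. The median change was -0.48, and for 14 members all tumor values lay below all naive ones, beside 8.07% of all genes. *Nr4a3*, an orphan nuclear receptor, read 6.34, 5.98 and 5.9 in DN tumor replicates, against 7.23, 8.42 and 7.28 in DN naive replicates, and fell by 1.57 ± 0.28 (adjusted p = 0.0018). Its relative *Nr4a2* fell by 1.54 (adjusted p = 0.0095), and the bZIP transcription factors *Maff* (-1.2, adjusted p = 0.044) and *Atf3* (-0.88, adjusted p = 0.048) passed as well. Of the 4, *Nr4a3* passed in all 6 models without 1 DN replicate and *Atf3* in none. Lower members numbered 1 without DN tumor 1, 8 without DN tumor 3, 2 without DN naive 2 or DN naive 3 and 0 with weights by cell type. *Dusp2*, a nuclear phosphatase abundant in lymphocytes, moved against the list, with 12.84, 11.95 and 9.83 in DN tumor replicates, against 7.55, 9.39 and 8.57 in DN naive replicates (3.04 ± 0.65, adjusted p = 0.0076). The median change of this list was -0.5 in FRCs, -0.51 in BECs and -0.42 in LECs. In the contrast of changes 0 members differed from the mean of those cell types, beside 0.845% of all genes. Such genes are also induced by tissue digestion, and the handling of the groups was not tested.

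Interferon response genes gave 4 higher of 32 and 0 lower (median 0.42), beside 5.03% of all genes higher and 2.76% lower. *Oas2*, an oligoadenylate synthetase, read 8.75, 8.71 and 7.96 in DN tumor replicates, against 5.71, 6.97 and 6.12 in DN naive replicates, and rose by 2.21 ± 0.32 (adjusted p = 0.00027). It rose by 2.39 ± 0.36 more than in the other cell types (adjusted p = 0.0026), in which it was already high in naive mice (9.91 in FRCs, 10.74 in BECs and 9.44 in LECs). *Ifit3* (0.8 ± 0.18, adjusted p = 0.011), *Oasl1* (1.68, adjusted p = 0.018) and *Isg15* (0.89, adjusted p = 0.038) passed too. The count was 1 without DN tumor 1 and with weights by cell type, 2 without DN tumor 2, DN naive 1 or DN naive 3, 8 without DN tumor 3 and 15 without DN naive 2. Among metabolic genes *Pdk4*, a kinase that restrains pyruvate oxidation, fell by 1.28 ± 0.33 (adjusted p = 0.024) and *Stard4*, a cholesterol carrier, rose by 1.97 ± 0.41 (adjusted p = 0.0056), the other called member of these lists being *Pfkp*, a phosphofructokinase (0.55, adjusted p = 0.05 as rounded).

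Across the other lists of foreign cells few members passed, beside 5.03% of all genes higher and 2.76% lower. Plasma cell markers gave 1 higher of 4 (*Mzb1*), skeletal muscle genes 1 lower of 15 (*Tcap*, a sarcomere protein, 6.86, 7.11 and 8.81 in DN tumor replicates, 8.92, 9.04 and 8.71 in DN naive replicates), and mast cell, red cell, platelet, adipocyte, epithelial and pancreatic genes gave 0. Some of these varied widely between replicates of a group. *Acta1*, skeletal actin, read 10.55, 9.99 and 12.2 in DN tumor replicates and 12.46, 7.15 and 12.31 in DN naive replicates, and the mast cell protease *Mcpt4* read 10.41, 8.56 and 5.43 in DN tumor replicates and 8.8, 5.04 and 7.62 in DN naive replicates. The groups overlapped for both.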

How the data were processed

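Log2 values, as deposited by the authors, form a table of 45281 probes by 48 strips. Background correction and normalization of these values are not given in the sources used here. The bead files, as deposited, list the intensity of each bead by code without probe names. Some intensities are below 0, so a background had been subtracted.

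All 48 strips gave a value for 45160 probes, of which 34811 have 1 gene symbol, 10331 none and 18 several. Names come from the platform annotation, updated by gene ID to RefSeq for 12646 of 12666 genes. The log2 values were quantile normalized and averaged over strips. The mode of the values was 4.97 and their robust SD 0.25. The 20341 probes with a group mean above 5.72 were kept, and for the 5107 genes with several kept probes the brightest was used. Groups were compared by limma (version 3.58.1, R 4.3.3), which fitted 8 group means to 24 replicates at once (16 residual and 3.19 prior degrees of freedom, 2-sided, Benjamini-Hochberg over all genes). An exact permutation test of 3 against 3 cannot go below p = 0.1. A group with no replicate above background was set to this level, and its fold is a lower bound. The number of arrays limits the precision.

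For the alternatives, codes were linked to probes by the profile of their values over strips. A code was found for 43129 probes, with a median correlation of 0.9707 and a lowest of 0.718. Beads beyond 3 median absolute deviations were removed, and normexp used an offset of 50. Python 3.11.15, numpy 2.4.6, pandas 2.3.3, scikit-learn 1.9.0 and matplotlib 3.10.9 were used. The linking and the limma fit were tested on simulated data.

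The 36 lists hold 724 distinct genes that were tested. Of the other members 90 were not above background in any group and 63 had no usable probe. The rule for naming genes took the 12 largest rises and the 12 largest falls that passed without overlap, up to 4 genes per list by smallest adjusted p and up to 2 that passed in the opposite direction, the sort genes and cell type markers, and the 5 largest differences from the other cell types in each direction. *Plk1*, *Top2a*, *Aurka*, *Atf3*, *Mrto4* and the cell cycle genes that did not pass are named outside this rule, after their values were seen. The replicates compared, the lists and these rules were chosen with earlier results of these data known. The alternatives varied the samples in the fit, strips, normalization, background, filter, probe choice and variance model, and left out each DN replicate. The t-test named in the methods of the paper that reuses these arrays, called the methods' t-test below, was run too.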

Additional observations from a re-analysis of the deposited data

Results flagged for a closer look

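Genes named in the report are listed here where their change in DN cells differed from the mean change of FRCs, BECs and LECs in the limma contrast of changes. Over all genes 67 rose more and 40 less in DN cells, which is 0.529% and 0.316% of those tested. Values are the change in DN cells minus that mean, on the log2 scale with the SE.

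Genes that rose further in DN cells were in part genes that naive endothelium already expressed. *Klhl6*, a ubiquitin ligase adaptor of B cells, read 12.93, 12.36 and 10.01 in DN tumor replicates, against 7.47, 7.59 and 7.0 in DN naive replicates, a difference of 3.98 ± 0.64 (adjusted p = 0.004), and averaged 12.35 in naive BECs and 12.15 in naive LECs. *Hcls1*, a hematopoietic cortactin relative, differed by 3.7 ± 0.68, *Mfng*, a Notch-modifying glycosyltransferase, by 3.59 ± 0.5 and *Myl4*, an atrial and embryonic myosin light chain, by 3.65 ± 0.62, with naive BECs at 10.14 for *Hcls1*, 11.95 for *Mfng* and 10.6 for *Myl4*. *St6galnac3*, a sialyltransferase, differed by 3.74 ± 0.8 and held in 2 of 6 models without 1 DN replicate, beside a change of -2.1 in FRCs and a level of 10.12 in naive BECs, and it was above background in 0 DN naive replicates. The endothelial genes *Pecam1* (3.3), *Ly6c1* (3.09) and *Tie1* (2.15) and the interferon gene *Oas2* (2.39) belong here too.

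Genes that fell further in DN cells were *Cmtm5* (-2.43), *Mag* (-2.11), *Gal3st1* (-2.05) and *Drp2* (-2.01), which are expressed in myelinating glia, *Matn4* (-1.66 ± 0.36), *Ovol1* (-1.89 ± 0.32), *Vat1l* (-1.94 ± 0.42), *S1pr3* (-1.43) and *Myocd* (-1.31). In naive FRCs, BECs and LECs, *Gal3st1* (5.31, 5.08 and 5.27), *Ovol1* (5.68, 5.42 and 5.24) and *Vat1l* (5.7, 5.25 and 5.68) were below the background level of 5.72 and *Myocd* (5.62, 5.91 and 5.66) near it, so that no fall could be measured there, and *Cmtm5*, *Drp2*, *Mag*, *Matn4* and *S1pr3* were below it in 1 cell type or more. In cell types below or near that level, the difference does not show that the fall was lacking. In naive FRCs *Drp2* (8.92), *Matn4* (9.8), *Cmtm5* (6.78), *Mag* (6.57) and *S1pr3* (6.27) were above it. They changed in FRCs by -0.46, -0.64, -0.77, 0.61 and 1.86. *Gas2l3*, a cytoskeletal linker of dividing cells, differed by -2.45 ± 0.46 (adjusted p = 0.01), since it rose by 1.55, 2.58 and 1.98 in FRCs, BECs and LECs, whereas in DN cells it read 8.18, 8.17 and 7.25 in tumor and 8.1, 8.46 and 8.29 in naive replicates. *Klhl6*, *Mfng*, *Myl4*, *Oas2*, *Tie1*, *Cmtm5*, *Gal3st1*, *Ovol1* and *Gas2l3* passed in all 6 models without 1 DN replicate.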

How the results depend on the processing

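The DN replicates spread more than those of the other cell types, and the calls depend on that spread. Calls in DN cells (987), calls among list members (101) and genes whose change differs from the other cell types (107) came to 3772, 258 and 2296 with array weights, whose estimation did not converge. Weights by cell type, added after seeing the data, gave 128, 23 and 18, and leaving out DN tumor 3 and DN naive 2 together, likewise added, gave 3213, 228 and 1477. The DN replicates alone gave 0 calls, for list members too, and so did the methods' t-test after adjustment (1146 without it). Without 1 DN replicate the ranges were 311 to 2155 calls, 43 to 178 list members and 45 to 660 differing genes.

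For the lists led with, the DN replicates alone and the adjusted t-test gave 0 members. Weights by cell type gave 16 cell cycle, 2 B cell, 0 leukocyte, 2 blood endothelial and 1 Schwann cell genes. Array weights gave 13 B cell and 5 Schwann cell genes, median centring gave 5 B cell genes, the mean of the kept probes gave 5 Schwann cell genes and the unadjusted t-test gave 4 B cell and 4 leukocyte genes. Without 1 DN replicate 22 to 30 cell cycle, 3 to 11 B cell, 1 to 10 leukocyte, 7 to 14 blood endothelial and 2 to 6 Schwann cell genes were called. No named gene that passed changed direction under any alternative, and 0 to 83 of the 83 fell below the threshold.

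With a replicate block 498 genes were higher and 214 lower. Deviations of DN tumor and naive replicates with the same number correlated at -0.03, -0.2 and -0.02. With 3 replicates per group these values cannot tell whether samples with the same number share sorts. DN tumor 1, 2 and 3 correlated best with other numbers.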
